A study of Homo sapiens with 32 samples.

Results

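The genes described here encode 9 proteins that collect in cytoplasmic inclusions or carry mutations in amyotrophic lateral sclerosis (ALS) and related diseases: TARDBP, EWSR1, TAF15, HNRNPA1, HNRNPA2B1, TIA1, MATR3, ATXN2 and SOD1. They were chosen by name, and each matched 1 of the 60107 genes in the deposited count table. The study asked how loss of the kinase ATM and trapping of topoisomerase 1 by camptothecin (CPT) affect protein aggregation, and RNA of the same cell models was sequenced near the 3′ end of each transcript (QuantSeq). What follows concerns transcripts only, and no protein or aggregate was measured in these files.

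Of the 9 genes, 8 encode RNA-binding proteins. Many of these proteins hold long stretches of low sequence complexity, which let them gather into condensates such as stress granules (cytoplasmic bodies of stalled mRNA and protein) and paraspeckles (nuclear bodies built on a long noncoding RNA). The same stretches are known to convert into fibrils, and disease mutations in several of them speed that step. TARDBP binds UG-rich RNA and leaves the nucleus for inclusions in most ALS. EWSR1 and TAF15 belong to the FET family of transcription and splicing regulators. HNRNPA1 and HNRNPA2B1 are abundant nuclear proteins that package pre-mRNA and steer splicing. TIA1 helps to seed stress granules, MATR3 is an RNA-binding protein of the nuclear matrix, and ATXN2 is a polyglutamine protein of stress granules. SOD1, the copper-zinc superoxide dismutase, binds no RNA in this role, and its mutants misfold in familial ALS.

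The 32 libraries came from HEK293T, a human embryonic kidney line that carries the SV40 large T antigen, and from U2OS, a human osteosarcoma line. They form 8 sets of 4. U2OS cells received DMSO (libraries 30 to 33) or CPT (26 to 29). HEK293T cells received DMSO (22 to 25) or, in libraries 18 to 21, what the labels call ATM KO and the study's methods describe as an ATM inhibitor. For HEK293T, the labels give 24 h of treatment and 48 h of recovery. The study's methods describe this schedule for drug treatments in general, unless stated otherwise. According to the methods, U2OS received a higher dose of CPT than HEK293T. Untreated U2OS cells, wild type (WT) or ATM KO, were grown for 72 h, and the ATM KO line was picked as a clone after CRISPR/Cas9 editing, so that clone and genotype cannot be told apart.

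Between libraries 1 and 17, 14 carry labels whose cell line their expression profiles contradict. Libraries 10, 12, 14 and 16 are labelled U2OS ATM KO and 11, 13 and 15 U2OS WT, yet all had the marker profile of HEK293T, as did library 17, labelled HEK293T DMSO. Libraries 2, 4, 6 and 8 are labelled HEK293T CPT and 3, 5 and 7 HEK293T DMSO, yet all had the profile of U2OS, as did library 1, labelled U2OS WT. They were therefore regrouped by library number as HEK293T CPT (10, 12, 14, 16) against DMSO (11, 13, 15, 17) and U2OS ATM KO (2, 4, 6, 8) against WT (1, 3, 5, 7). Each library kept the case or control status of its label, and for 14 of 32 libraries the cell line, and with it the agent, departed from the label. Apart from the labels of controls 1 and 17, no label supports the agent in these sets. Every direction from these sets therefore holds only under that regrouping. Groups formed by label mix the lines. By profile, the 4 libraries labelled HEK293T CPT were U2OS and their 8 DMSO controls were 3 U2OS and 5 HEK293T, while the 4 labelled U2OS ATM KO were HEK293T and their 4 WT controls were 3 HEK293T and 1 U2OS. Values by label below therefore hold a difference between lines as well. Summed over 6 U2OS markers (CLU, CAV1, CD44, LGALS1, S100A6 and TGFBI), the level was 2281 to 4975 CPM in the 16 libraries taken as U2OS and 60.1 to 237 CPM in the 16 taken as HEK293T. Summed over 5 HEK293T markers (LIN28B, CDKN2A, NEFL, NEFM and TERT), it was 68.1 to 193 CPM and 497 to 969 CPM, although NEFL alone did not separate the lines and TERT was at 0 in some HEK293T libraries.

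Libraries held between 1232674 and 6362433 counts on genes, and CPM below are counts rescaled to a total of 1000000 on genes. The floor of 3 counts equals 2.43 CPM in the shallowest and 0.472 CPM in the deepest library and covers counting error only, and each of the 9 genes had at least 68 counts in every library. ATM itself, the targeted gene, read 61.7, 52.9, 54.7 and 34.2 CPM in the ATM KO libraries 2, 4, 6 and 8 and 57.2, 68.4, 53.4 and 63.5 CPM in the WT libraries 1, 3, 5 and 7. The groups overlapped (log2 fold change −0.31, SE 0.17, adjusted p = 0.255 by edgeR), and 3′ tags outside an edited site check nothing about a knockout. The study describes the 4 libraries of a set as independent repeats, and the labels add nothing on how they were grown. In bulk RNA a change in the make-up of the cells and a change in RNA per cell cannot be told apart.

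At the level of single genes, HNRNPA2B1, HNRNPA1, SOD1 and MATR3 were the most abundant of the 9 transcripts and TARDBP and TIA1 the least. Because 3′ tags do not grow with transcript length, CPM were set side by side between genes without a length correction. In DMSO-treated U2OS cells the order was HNRNPA2B1 (654 ± 109 CPM, SD, n = 4), SOD1 (501 ± 35.4), MATR3 (358 ± 11.8), HNRNPA1 (237 ± 13.5), EWSR1 (152 ± 15.1), ATXN2 (143 ± 16.6), TAF15 (103 ± 11.6), TIA1 (76.5 ± 13.1) and TARDBP (46.3 ± 10.4). The libraries of neighbours overlapped for HNRNPA2B1 and SOD1 and for EWSR1 and ATXN2, and for no other neighbours in this order. In DMSO-treated HEK293T cells (22 to 25) HNRNPA1 stood second, with 677 ± 25 CPM, behind HNRNPA2B1 with 877 ± 19.7 CPM, and no neighbours overlapped. SOD1 followed with 469 ± 16.9 CPM, MATR3 with 382 ± 32.2 and EWSR1 with 250 ± 31.2. ATXN2 (132 ± 2.17 CPM), TAF15 (105 ± 4.48), TIA1 (70.6 ± 8.65) and TARDBP (50.1 ± 4.46) closed the order.

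HNRNPA1 had the widest range across all 32 libraries, from 125 CPM in a CPT-treated U2OS library to 930 CPM in a HEK293T control, a ratio of 7.42. ATXN2 had the narrowest, from 104 to 162 CPM with a ratio of 1.56, and the ratio for the other 7 genes lay between 2.24 and 3.72. Summed over the 9 genes, the level was 2271 ± 174 CPM in U2OS with DMSO, 1663 ± 28.4 CPM with CPT, 3011 ± 35.2 CPM in HEK293T with DMSO (22 to 25) and 2910 ± 258 CPM with the ATM inhibitor. The regrouped sets summed to 2155 ± 148 CPM (U2OS WT), 1822 ± 257 CPM (U2OS ATM KO), 3537 ± 360 CPM (HEK293T DMSO) and 3211 ± 156 CPM (HEK293T CPT).

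The first comparison asked how CPT changed these transcripts in U2OS cells, where the labels and profiles match. HNRNPA1, HNRNPA2B1, MATR3 and EWSR1 fell, none of the 9 rose, and none passed the study's cutoff, which also asks for an absolute log2 fold change over 1. Of all 19080 genes tested, 31.9% had an adjusted p under 0.05, 15.3% did so downwards, and 13.5% passed the cutoff. Like each of the 9, 5059 of these genes had a mean log2 CPM over 5. Of them 48.4% had an adjusted p under 0.05, and 25.1% did so downwards. In either direction, 4 of 9 is no larger a share than that 48.4%. All 4 fell, which is a larger share than 25.1%, and this difference was not tested. Fold changes below are from edgeR's quasi-likelihood test after TMM scaling, which sets the bulk of genes to no change. Scaling by library totals alone moved the median of all genes by −0.17 on the log2 scale in this comparison.

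HNRNPA1 read 125, 141, 145 and 158 CPM in the CPT libraries 26, 27, 28 and 29. It read 226, 253, 226 and 245 CPM in the DMSO libraries 30, 31, 32 and 33. Every treated library lay below every control, and the log2 fold change was −0.57 (SE 0.11, Benjamini-Hochberg adjusted p = 1.49e-04 by edgeR). HNRNPA2B1, the closest relative of HNRNPA1 among the 9, read 412, 391, 376 and 385 CPM against 780, 684, 634 and 517 CPM. The groups did not overlap, and its log2 fold change of −0.56 (SE 0.11, adjusted p = 1.39e-04 by edgeR) was almost that of HNRNPA1. The controls of HNRNPA2B1 spread more widely than the treated libraries. Both falls passed the test under all 15 alternatives, with log2 fold changes from −0.74 to −0.52 for HNRNPA1 and from −0.74 to −0.51 for HNRNPA2B1.

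MATR3, the nuclear matrix protein, read 223, 243, 260 and 251 CPM with CPT and 371, 346, 365 and 350 CPM with DMSO. These groups stood clear of each other (log2 fold change −0.38, SE 0.11, adjusted p = 0.00532 by edgeR), and the call also held under all 15 alternatives. EWSR1, a FET family regulator, read 88.3, 101, 115 and 125 CPM with CPT and 145, 173, 150 and 138 CPM with DMSO. Its groups did not overlap in CPM before TMM scaling either, but the log2 fold change of −0.33 (SE 0.12, adjusted p = 0.0339 by edgeR) was close to the threshold. Without library 26, 27, 31 or 32 in turn EWSR1 no longer passed (log2 fold change −0.33 to −0.24, adjusted p 0.0640 to 0.139 by edgeR).

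TAF15, the other FET member of the 9, read 68.5 to 86.9 CPM with CPT and 93.7 to 119 CPM with DMSO. The groups did not overlap, yet its log2 fold change of −0.25 (SE 0.12) had an adjusted p of 0.0973 by edgeR. Scaled by library totals alone, it passed (−0.42, adjusted p = 0.00776 by edgeR). Lower groups without overlap were found for 20.1% of all genes tested, in CPM before TMM scaling. TIA1 read 49.3 to 60.5 CPM with CPT and 59.8 to 92.0 CPM with DMSO, with a log2 fold change of −0.30 (SE 0.12, adjusted p = 0.0607 by edgeR). The overlap came from library 33, the lowest control, and without it TIA1 passed the test (log2 fold change −0.38, adjusted p = 0.0121 by edgeR). TIA1 also passed with the filterByExpr filter on low counts (adjusted p = 0.0474 by edgeR) and with library totals alone (−0.48, adjusted p = 0.00570 by edgeR), under which 6 of the 9 genes fell. TARDBP, ATXN2 and SOD1 had log2 fold changes of −0.03, 0.01 and 0.11, with 95% intervals from −0.31 to 0.25, from −0.21 to 0.24 and from −0.11 to 0.32. Their groups overlapped, and under library totals alone ATXN2 (−0.16) and SOD1 (−0.07) took the other sign.

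The promoters of genes that fell together with CPT in U2OS are shown with that of TARDBP, whose level overlapped between the groups. RefSeq windows on GRCh38.p14, from 250 bases before to 50 after a transcript start, were at hand for 5 of the 9 genes, among them EWSR1, HNRNPA2B1 and MATR3, but not HNRNPA1. Each runs 5′ to 3′ on the strand of the gene, with matches to a motif in capitals. For MATR3, which has more than 1 annotated start, the window nearest to the gene start in GENCODE 29 is printed.
EWSR1, chr22:29268018-29268317, plus strand: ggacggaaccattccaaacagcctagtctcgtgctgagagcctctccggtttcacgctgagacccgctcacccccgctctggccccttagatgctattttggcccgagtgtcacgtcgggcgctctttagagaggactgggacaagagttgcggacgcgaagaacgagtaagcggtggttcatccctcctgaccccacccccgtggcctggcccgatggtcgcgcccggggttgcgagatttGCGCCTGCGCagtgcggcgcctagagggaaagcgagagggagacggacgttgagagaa
HNRNPA2B1, chr7:26200697-26200996, minus strand: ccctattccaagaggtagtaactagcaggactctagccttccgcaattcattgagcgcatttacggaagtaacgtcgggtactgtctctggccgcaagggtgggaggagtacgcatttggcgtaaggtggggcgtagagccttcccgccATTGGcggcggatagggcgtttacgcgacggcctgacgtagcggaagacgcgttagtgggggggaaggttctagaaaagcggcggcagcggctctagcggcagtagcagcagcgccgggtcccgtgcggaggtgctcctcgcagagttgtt
MATR3, chr5:139293490-139293789, plus strand: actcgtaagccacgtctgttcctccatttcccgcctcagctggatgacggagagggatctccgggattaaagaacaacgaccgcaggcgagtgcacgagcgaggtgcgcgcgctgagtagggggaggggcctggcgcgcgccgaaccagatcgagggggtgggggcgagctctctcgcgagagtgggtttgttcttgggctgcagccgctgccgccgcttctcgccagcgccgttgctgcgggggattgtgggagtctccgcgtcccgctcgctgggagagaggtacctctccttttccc
TARDBP, chr1:11012404-11012703, plus strand: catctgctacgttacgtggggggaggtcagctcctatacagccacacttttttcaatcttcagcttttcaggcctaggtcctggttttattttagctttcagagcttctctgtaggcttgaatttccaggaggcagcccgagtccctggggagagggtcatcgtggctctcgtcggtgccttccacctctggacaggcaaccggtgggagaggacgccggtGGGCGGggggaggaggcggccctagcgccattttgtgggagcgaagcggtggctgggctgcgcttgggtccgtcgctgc

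All 4 windows lay above the median of all promoter windows in GC content and in CpG dinucleotides, TARDBP by the least in both. GC content was 62.7% for EWSR1, 60.3% for HNRNPA2B1, 66% for MATR3 and 60% for TARDBP, against a median of 58.7% over all 35116 promoter windows. The CpG counts were 28, 29, 32 and 17, against a median of 14. Of the motifs searched on both strands, EWSR1 held the NRF1 motif (in 5.78% of all windows), HNRNPA2B1 a CCAAT box (CCAAT, 34.6%) and TARDBP a GC box (GGGCGG, 45%). The MATR3 window held none of these, and none of the 4 held the ETS core (CCGGAAG, 10.3%) or a TATA box (TATAAA, 11.5%). The 3 printed genes that fell therefore shared no motif among those searched in these windows. The MATR3 window that is not printed held 3 GC box matches. Both TIA1 windows, also not printed, held the NRF1 motif and the GC box. The upstream TIA1 window also held a TATA box match, and the other a CCAAT box.

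In the regrouped HEK293T libraries, CPT went with a lower level of HNRNPA1 and higher levels of SOD1 and ATXN2. Of 19464 genes tested, 34.9% had an adjusted p under 0.05, 17.3% downwards and 17.6% upwards, so 3 of 9 genes is a share near that of all genes. Among the 5643 genes at a mean log2 CPM over 5 it was 47.2%, with 29.1% downwards and 18.1% upwards and a median log2 fold change of −0.081. The share of reads that the authors' pipeline could assign to no gene was 15.8 to 18.5% of counts in the CPT libraries and 9.39 to 10.99% in their controls, and its part in the results was not tested. In U2OS that share was 30.9 to 39.9% with CPT and 33.6 to 38.7% with DMSO.

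HNRNPA1 read 417, 468, 488 and 392 CPM in the CPT libraries 10, 12, 14 and 16. It read 898, 784, 881 and 930 CPM in the control libraries 11, 13, 15 and 17. The treated libraries all lay far below the controls, as for 14.6% of genes in this direction, with a log2 fold change of −1.01 (SE 0.11, adjusted p = 1.52e-07 by edgeR). HNRNPA1 was the only one of the 9 past the study's cutoff, which 14% of all genes passed, and it sat at the edge of it. Its log2 fold change was −0.97 with DESeq2, −0.99 without library 10, −0.996 without library 11, −0.95 without library 16 and −0.99 without library 17. The table also holds 75 annotated pseudogenes named after HNRNPA1, whose counts summed to at most 27.7 CPM in a library, and reads could have been split between them and the gene. By label, with 4 libraries of U2OS profile against 3 of U2OS and 5 of HEK293T profile, HNRNPA1 stood at −0.87 with an adjusted p of 0.0561 by edgeR.

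SOD1, which removes superoxide from the cytosol, read 883, 964, 904 and 992 CPM with CPT and 743, 634, 609 and 754 CPM in the controls. All treated libraries lay above all controls (log2 fold change 0.43, SE 0.11, adjusted p = 0.00302 by edgeR). The call held in each alternative but the grouping by label, where SOD1 took the other sign (−0.27). ATXN2, the polyglutamine protein, read 128, 160, 129 and 148 CPM with CPT and 104, 105, 122 and 118 CPM in the controls. Its groups did not overlap, as for 16.4% of all genes in this direction, and the log2 fold change was 0.31 (SE 0.11, adjusted p = 0.0334 by edgeR). Without library 11, 12 or 16 in turn ATXN2 no longer passed (log2 fold change 0.25 to 0.29, adjusted p 0.0553 to 0.113 by edgeR). The call was also lost with no filter on low counts (0.30, adjusted p = 0.0620 by edgeR) and by label (0.065, adjusted p = 0.782 by edgeR).

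HNRNPA2B1 read 853, 683, 809 and 491 CPM with CPT and 1007, 668, 750 and 1134 CPM in the controls. These groups overlapped widely, and its log2 fold change of −0.34 (SE 0.16) had an adjusted p of 0.0942 by edgeR. It passed without library 10 (−0.46, adjusted p = 0.0438 by edgeR) and without library 13 (−0.44, adjusted p = 0.0271 by edgeR). It also passed with no filter on low counts (−0.36, adjusted p = 0.0150 by edgeR), with all libraries in 1 fit (−0.37, adjusted p = 0.0353 by edgeR) and by label (−0.76, adjusted p = 0.0493 by edgeR). TAF15, MATR3, TARDBP, EWSR1 and TIA1 had log2 fold changes of −0.16, −0.06, 0.08, 0.14 and 0.20, all with overlapping groups and adjusted p from 0.295 to 0.774 by edgeR. TARDBP had the widest 95% interval of these, from −0.30 to 0.45, with 1 CPT library at 36.8 CPM and the other 3 at 60.5 to 65.2 CPM.

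**Figure D1:**
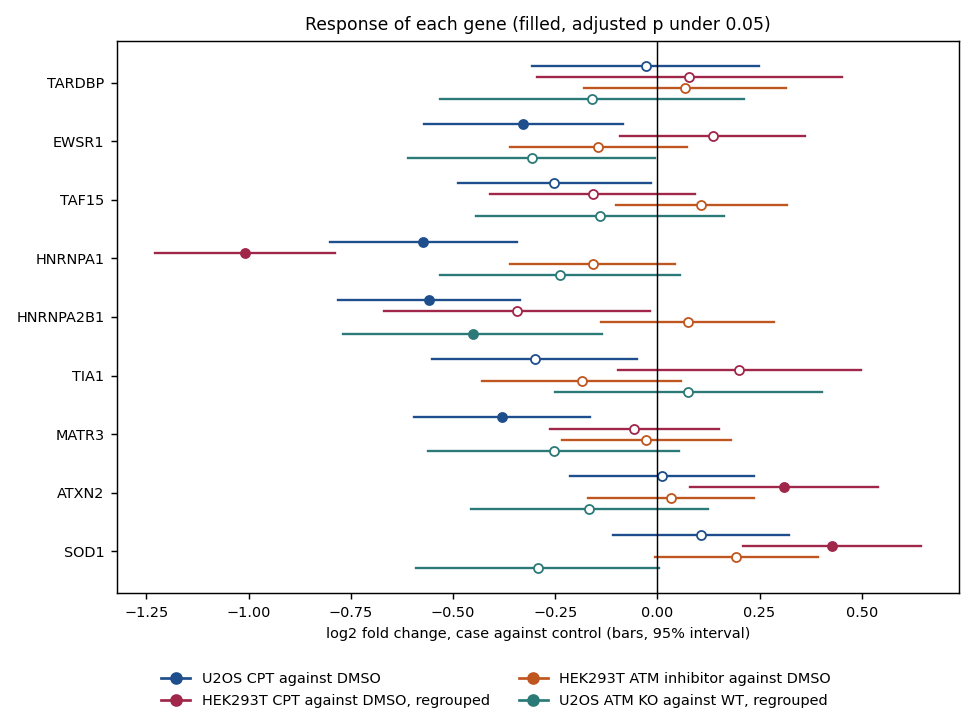
Log2 fold change of each gene (points) with its 95% interval (bars) in 4 comparisons of case against control, filled where the adjusted p from edgeR is under 0.05. HNRNPA1 with CPT reads −0.57 in U2OS and −1.01 in the regrouped HEK293T libraries, and no point of the ATM inhibitor is filled.

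Whether the response to CPT differed between the lines was tested as a contrast over the 16 libraries, the response in U2OS minus that in HEK293T. Line, dose and library series cannot be told apart in it. Of 22363 genes tested, 20.3% had an adjusted p under 0.05, as did 37.5% of the 5538 at a mean log2 CPM over 5 and 2 of the 9 genes. HNRNPA1 had a difference of 0.44 (SE 0.16, adjusted p = 0.0367 by edgeR), so that it fell by less in U2OS on the log2 scale. EWSR1 had a difference of −0.46 (SE 0.16, adjusted p = 0.0414 by edgeR), with a fall in U2OS and a value of 0.14 in HEK293T.

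Neither difference was stable to the loss of a library. HNRNPA1 no longer passed without library 10, 11, 16, 17, 29, 30 or 32 in turn (difference 0.39 to 0.44, adjusted p 0.0533 to 0.0842 by edgeR), and library totals alone gave 0.24 with an adjusted p of 0.282 by edgeR. EWSR1 no longer passed without library 10, 11, 12, 14, 15, 26, 27, 31 or 32 in turn (difference −0.45 to −0.37, adjusted p 0.0585 to 0.116 by edgeR). TIA1 missed the threshold (difference −0.50, SE 0.19, adjusted p = 0.0546 by edgeR) and passed without library 10, 15, 16, 17 or 33 in turn (−0.60 to −0.53, adjusted p 0.0217 to 0.0482 by edgeR). For MATR3, SOD1 and ATXN2 the differences were −0.32, −0.32 and −0.30, with adjusted p of 0.134, 0.160 and 0.207 by edgeR. HNRNPA2B1, TARDBP and TAF15 had 95% intervals that ran from −0.59 to 0.19, from −0.56 to 0.37 and from −0.45 to 0.26.

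With the ATM inhibitor in HEK293T cells, none of the 9 genes passed the test, and none had an unadjusted p under 0.05 by edgeR. Only 1 of 18413 genes did pass, which is 0.00543% of them, and 1019 genes (5.53%) had an unadjusted p under 0.05. Without library 21 the count over all genes was 97, none of them among the 9. DESeq2 also called none of the 9. The log2 fold changes of the 9 genes lay between −0.18 (TIA1) and 0.19 (SOD1), and their 95% intervals reached from −0.43 to 0.39 at the most.

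SOD1 read 489, 507, 496 and 568 CPM in the inhibitor libraries 18 to 21 and 463, 448, 482 and 483 CPM in the DMSO libraries 22 to 25. The inhibitor libraries all lay above the controls, as for 1.12% of genes in this direction, with an adjusted p of 0.894 by edgeR. HNRNPA1 read 610, 530, 547 and 641 CPM against 688, 706, 661 and 651 CPM. Its inhibitor libraries all lay below the controls, as for 1.96% of genes, with a log2 fold change of −0.16 (SE 0.10, adjusted p = 0.917 by edgeR). HNRNPA2B1, the most abundant of the 9 here, read 772 to 1081 CPM against 857 to 895 CPM, and the groups overlapped, as they did for the remaining genes.

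The set of DMSO libraries used as the control decided the sign for several genes. Adding libraries 11, 13, 15 and 17 to libraries 22 to 25 turned the sign of EWSR1, TAF15, TIA1 and SOD1. HNRNPA1 and MATR3 kept their sign with those libraries added. HNRNPA1 in control HEK293T cells averaged 677 ± 25 CPM in libraries 22 to 25 and 873 ± 62.9 CPM in libraries 11, 13, 15 and 17, and SOD1 averaged 469 ± 16.9 and 685 ± 74.2 CPM. MATR3 averaged 382 ± 32.2 and 552 ± 15.4 CPM, while TIA1 averaged 70.6 ± 8.65 and 44.9 ± 9.63 CPM. The labels give no date or batch, and the difference between these control sets was not tested.

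In the regrouped U2OS libraries, HNRNPA2B1 was lower in ATM KO cells than in WT cells, and the other 8 genes did not pass. Of 18591 genes tested, 13% had an adjusted p under 0.05, 6.56% downwards, and of the 4960 at a mean log2 CPM over 5 these shares were 20% and 11.9%. HNRNPA2B1 read 518, 305, 330 and 357 CPM in the ATM KO libraries 2, 4, 6 and 8 and 531, 491, 499 and 477 CPM in the WT libraries 1, 3, 5 and 7. The groups overlapped through library 2, the shallowest of all, and the log2 fold change was −0.45 (SE 0.16, adjusted p = 0.0474 by edgeR). Without library 1, 3, 4, 5, 6 or 8 in turn HNRNPA2B1 no longer passed (log2 fold change −0.48 to −0.39, adjusted p 0.0533 to 0.152 by edgeR). By label, with the lines mixed, it stood at −0.14 with an adjusted p of 0.785 by edgeR.

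Of the 9 genes, 8 had a log2 fold change below 0 in ATM KO cells, with TIA1 (0.08) the exception, and the median was −0.24 beside 0.04 over all genes tested and −0.037 over those at a mean log2 CPM over 5. EWSR1 read 95.9 to 120 CPM in ATM KO and 112 to 152 CPM in WT cells, with a log2 fold change of −0.31 (SE 0.15, adjusted p = 0.188 by edgeR). SOD1 read 291 to 439 CPM and 361 to 469 CPM, with a log2 fold change of −0.29 (SE 0.15, adjusted p = 0.204 by edgeR), and passed without library 8 (−0.39, adjusted p = 0.0461 by edgeR). MATR3 (−0.25), HNRNPA1 (−0.24), ATXN2 (−0.17), TARDBP (−0.16) and TAF15 (−0.14) had overlapping groups and adjusted p from 0.310 to 0.662 by edgeR. The spread of MATR3 was wide on both sides, with 298 to 529 CPM in ATM KO and 407 to 567 CPM in WT cells.

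Without damage the lines differed most in HNRNPA1. In libraries 30 to 33 it read 226 to 253 CPM in U2OS, and in libraries 22 to 25 it read 651 to 706 CPM in HEK293T, without overlap, as for 32.3% of genes in this direction, with a log2 fold change of −1.28 (SE 0.10, adjusted p = 7.55e-13 by edgeR). This comparison shares its libraries with the CPT and inhibitor comparisons above, and 62.1% of 19739 genes passed it, 32% upwards and 30.1% downwards, as did 75.8% of the 5655 at a mean log2 CPM over 5. HNRNPA1 was the only one of the 9 past the study's cutoff, which 39.9% of genes passed. Its log2 fold change ran from −1.51 to −1.21 over 16 alternatives, and in the regrouped control libraries (1, 3, 5 and 7 against 11, 13, 15 and 17) it was −1.21 (adjusted p = 1.3e-10 by edgeR).

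The other calls between the lines depended on the libraries or on the scale. EWSR1 was lower in U2OS in libraries 30 to 33 against 22 to 25 (138 to 173 against 223 to 289 CPM, log2 fold change −0.50, SE 0.11, adjusted p = 2.64e-04 by edgeR), and stood at −0.06 (adjusted p = 0.713) in the regrouped controls. SOD1 was higher in U2OS in the first pair of sets (0.32, SE 0.10, adjusted p = 0.00624) and lower in the regrouped controls (−0.35, adjusted p = 0.0151 by edgeR). TIA1 (0.33, adjusted p = 0.0198) and ATXN2 (0.35, adjusted p = 0.00551) were higher in U2OS, and also in the regrouped controls (0.72, adjusted p = 8.14e-05, and 0.57, adjusted p = 1.23e-04, by edgeR). Without library 22, 24, 25, 30 or 32 in turn TIA1 no longer passed (0.28 to 0.31, adjusted p 0.0505 to 0.0626 by edgeR). Library totals alone moved the median of all genes by −0.22, and under it TIA1, ATXN2 and SOD1 no longer passed while HNRNPA2B1 did (−0.42, adjusted p = 0.00114 by edgeR). HNRNPA2B1 stood at −0.21 (adjusted p = 0.0855) with TMM, passed without library 30 (−0.25, adjusted p = 0.0410) and was lower in U2OS in the regrouped controls (−0.46, adjusted p = 0.00549 by edgeR). TARDBP (0.10), MATR3 (0.13) and TAF15 (0.19) did not pass in either pair of sets.

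**Figure D2:**
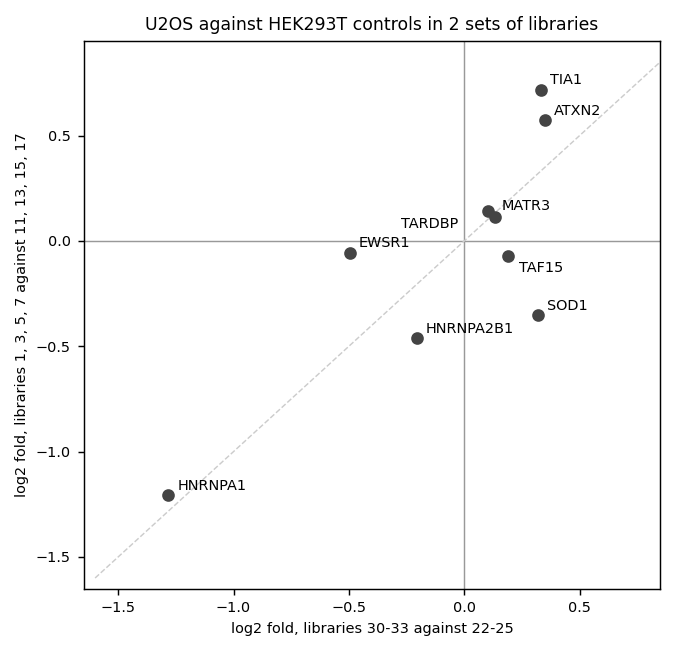
Log2 fold change of U2OS against HEK293T control libraries for each gene in libraries 30 to 33 against 22 to 25 (horizontal axis) and in the regrouped libraries 1, 3, 5 and 7 against 11, 13, 15 and 17 (vertical axis), where the dashed line marks equal values. HNRNPA1 lies near −1.28 and −1.21, and SOD1 has opposite signs at 0.32 and −0.35.

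The 9 genes were set beside related lists, without a test of any list. Of 24 other hnRNP and paraspeckle proteins, 17 fell and none rose with CPT in U2OS. The median log2 fold change was −0.40, beside −0.30 for the 9 genes and 0.01 for all genes tested. Of all genes tested 15.3% fell, as did 25.1% of those at a mean log2 CPM over 5. HNRNPA0, a relative of HNRNPA1, fell by 1.04, and the paraspeckle proteins PSPC1 and SFPQ fell by 0.79 and 0.63 on the log2 scale. In regrouped HEK293T libraries 14 of these 24 fell and 3 rose with CPT (median −0.33, beside 0.08 for the 9 genes and 0.04 for all genes). Of all genes tested there, 17.3% fell and 17.6% rose. At a mean log2 CPM over 5 these shares were 29.1% and 18.1%. RBMX and PTBP1, both splicing regulators, fell by 0.60 and 0.49, while PSPC1 rose by 0.54. The count that fell there was 9 without library 11 and 7 without library 16, and by label it was 3.

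Of 20 stress granule proteins, 2 rose and 1 fell with CPT in U2OS (median −0.03), where 31.9% of all genes were called, with PABPC1, the poly(A)-binding protein, at 0.47 and FXR1 at −0.32. Without library 26, 27, 29, 30 or 32 in turn none of them fell, without library 31 the count was 3, and without library 33 it was 2. The count that rose was 1 without library 27, 28 or 32, and library totals alone gave 1 that rose and 8 that fell. In regrouped HEK293T libraries 6 rose and 4 fell (median 0.02), with 2 that fell when library 11 was left out, and FXR2, STAU1 and UBAP2L had log2 fold changes of 0.79, 0.62 and 0.57. Of the other ALS genes, 4 of 19 tested rose and 2 fell in U2OS, and 7 of 20 rose and 4 fell in HEK293T, beside 31.9% and 34.9% of all genes called. The count that fell was 1 in U2OS without library 27, 28, 29 or 32, and 2 in HEK293T without library 10, 15 or 16. TUBA4A, an alpha tubulin, had log2 fold changes of 1.64 in U2OS and 2.39 in HEK293T. OPTN, an autophagy receptor, had 1.40 and 1.304, SQSTM1, another receptor, had 1.03 in HEK293T, and CCNF, a cyclin of a ubiquitin ligase, had −0.80 in U2OS.

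In ATM KO cells, where 13% of all genes were called, 3 of the 24 hnRNP and paraspeckle proteins fell and none rose (median −0.22), with HNRNPAB at −0.77 and HNRNPF at −0.74, and 5 fell without library 2 and 7 without library 8. None of the 20 stress granule proteins passed by edgeR, of which 2 had an unadjusted p under 0.05, and 3 of 20 other ALS genes rose and 3 fell. TUBA4A and OPTN stood at 2.70 and 1.64 there, and GLE1, an mRNA export factor, at −0.77. With the ATM inhibitor no gene of any list passed by edgeR, and 1 hnRNP or paraspeckle protein, 1 stress granule protein and 2 other ALS genes had an unadjusted p under 0.05.

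Between the lines without damage, where 62.1% of all genes were called, 11 of the 24 hnRNP and paraspeckle proteins were lower and 4 higher in U2OS, a share near that of all genes, among them HNRNPC (−0.97), HNRNPH1 (−0.90) and RBMX (−0.83). Of the 20 stress granule proteins 5 were higher and 8 lower, with EIF2S1 at 1.27 and FMR1 at −1.18, and of the 20 other ALS genes 7 were higher and 4 lower, with VCP at 1.59. In the difference of the CPT responses, which called 20.3% of all genes, 6 of the 24 hnRNP and paraspeckle proteins were lower in U2OS and none higher, led by PSPC1 (−1.33), SFPQ (−0.91) and HNRNPM (−0.69). Of the stress granule proteins 2 were higher and 5 lower, with PABPC1 at 0.94, and of the other ALS genes 2 were higher and 2 lower, with CCNF at −1.28. The count that was higher fell to 1 for the stress granule proteins without library 10, 11, 12, 14, 15, 17, 26 or 32 in turn, and for the other ALS genes without library 26 or 33.

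In GENCODE 29 on GRCh38 the genes lie at chr1:11012344-11026420 (TARDBP), chr22:29268009-29300525 (EWSR1), chr17:35713791-35864615 (TAF15), chr12:54280193-54287088 (HNRNPA1), chr7:26173057-26201529 (HNRNPA2B1), chr2:70209444-70248660 (TIA1), chr5:139293648-139331677 (MATR3), chr12:111443485-111599676 (ATXN2) and chr21:31659622-31668931 (SOD1). HNRNPA2B1, TIA1 and ATXN2 are on the minus strand. TAF15 overlaps AP2B1 and TIA1 overlaps C2orf42 on the same strand, so that reads in shared stretches could have been dropped as ambiguous, which took 0.631 to 1.51% of counts per library. MATR3 is overlapped by another entry of the same name, which is not among the genes counted here.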

How the data were processed

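RNA from the U2OS and HEK293T cultures was made into 3′ libraries with molecular identifiers (QuantSeq FWD). For 32 libraries the authors deposited raw counts on each gene, from Lexogen's UMI pipeline. Aligner settings and genome build are not given in the sources used here. Of the rows, 5 summary counts and 92 spike-in controls were left out. The pipeline's no-feature class took 9.39 to 39.9% of counts. Symbols for 56104 of 60107 identifiers came from GENCODE 29. All columns were used (0 left out).

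A gene was kept if at least 2 of the libraries fitted held more than 1 count of it, as in the study. Genes were tested with edgeR 4.0.16 in R 4.3.3 (TMM, quasi-likelihood test, Benjamini-Hochberg adjustment over all genes tested, p under 0.05). The study's cutoff adds an absolute log2 fold change over 1. Replicates differed by more than sampling noise (chi-square per degree of freedom 1.73 to 22.3). On simulated data the procedure recovered 42% (U2OS CPT), 56% (inhibitor), 29% (HEK293T CPT) and 26% (ATM KO) of log2 changes of 0.5. Between the lines it recovered 63% of them, and for the difference of responses 7%. Of log2 changes of 1, it recovered 85 to 100%. In the simulation 200 genes were changed, whereas 31.9% of genes were called with CPT in U2OS and 1 gene with the ATM inhibitor. The adjustment of p depends on how many genes change, so these rates do not carry over to the genes named here. Among those, −0.33 was called for EWSR1 (CPT in U2OS) and −0.50 was not for TIA1 (difference of responses). A change of 0.5 could still be missed, but how often was not tested. Alternatives were the likelihood ratio test, DESeq2 1.42.0, RLE, other filters, all libraries in 1 fit, grouping by label, other controls and leaving out each library. Library totals alone and the fit without libraries 1 and 2 were added after seeing the data.

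The 9 genes and the other lists were chosen with earlier results of these data known. Regrouping followed library numbers. All 9 genes are named, and of each other list up to 3 with the largest change among those that passed and whose groups did not overlap, with ATM and the cell line markers. CHCHD10, at 0 counts in U2OS DMSO libraries, is left out, and 1 other gene that this rule names is not reported here. Protein sequences were not analysed here.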

Additional observations from a re-analysis of the deposited data

Results flagged for a closer look

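In the regrouped HEK293T CPT libraries, TARDBP read 36.8 CPM in library 16, below 60.5 to 65.2 CPM in the other 3. The gap to its nearest neighbour was 0.833 of the range, past Dixon's 95% critical value for 4 samples. Of 72 groups of 4 tested over the 9 genes, this was the 1 that stood out, and chance gives about 1 in 20. Without that library the log2 fold change of TARDBP was 0.26 in place of 0.08.

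The response to CPT differed between the lines for EWSR1 (U2OS minus HEK293T −0.46, adjusted p = 0.0414 by edgeR) and for HNRNPA1 (0.44, adjusted p = 0.0367 by edgeR), where line, dose and library series cannot be told apart. This is 2 of 9 genes, beside 20.3% of all genes called. HNRNPA1 no longer passed when 1 library was left out in 7 cases, and EWSR1 in 9 cases.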

How the results depend on the processing

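Of 936 values of the 9 genes under alternatives, 816 kept direction and side of the threshold, 47 lost and 29 gained a call, and 44 changed sign. For each changed value the cause was not tested. HNRNPA1, HNRNPA2B1 and MATR3 with CPT in U2OS, and HNRNPA1 between the lines, passed in every alternative. No paired analysis was possible because the labels share no replicate numbers between groups. Depth limits TARDBP and TIA1 most, with 73 and 68 counts in their lowest libraries.

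By label, which mixes the lines, 1 of the 9 genes (1604 genes in all) passed for HEK293T CPT and 0 (778 in all) for ATM KO. In the HEK293T comparison by label EWSR1 was −0.60, TAF15 0.066, MATR3 0.064, SOD1 −0.27, FXR2 −0.73, UBAP2L −0.080, PSPC1 −0.26 and ATM −0.054, and in the ATM KO comparison TARDBP was 0.12, EWSR1 0.25, ATXN2 0.25 and SOD1 0.60. Past the study's cutoff, 0 of the 9 genes remained in HEK293T CPT with DESeq2, RLE, filterByExpr, library totals or by label. The filterByExpr filter turned MATR3 to 0.011 there. It left 0 of the 9 in ATM KO, as did library totals.

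With all 8 libraries labelled HEK293T DMSO as controls of the ATM inhibitor, 3 of which (3, 5 and 7) had the profile of U2OS, TARDBP was −0.040, EWSR1 0.063, TAF15 −0.13, HNRNPA1 0.026, ATXN2 −0.11 and SOD1 −0.0026. With libraries 22 to 25, 11, 13, 15 and 17, EWSR1 was 0.053, TAF15 −0.19, TIA1 0.096, SOD1 −0.14 and ATM 0.41. Over all genes the inhibitor gave 5 calls by the likelihood ratio test, 16 with no filter and 0 with either control set.

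Library totals alone called 6 of the 9 in U2OS CPT and gave ATXN2 −0.16 and SOD1 −0.066 (U2OS CPT), ATXN2 −0.028 (inhibitor), and TARDBP −0.12, TAF15 −0.033 and MATR3 −0.093 (between lines, 3 of the 9 called). In the regrouped controls TAF15 was −0.070 and SOD1 −0.35. The difference of CPT responses called 5 of the 9 with DESeq2, filterByExpr or totals, and 1 with no filter or all libraries in 1 fit, where ATM was 0.0071 with no filter. TMM-scaled CPM summed to 2414 (U2OS WT), 1905 (U2OS CPT), 2937.5 (HEK293T CPT), 2649 (inhibitor) and 2655 (HEK293T DMSO, 22 to 25).

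Leaving out 1 library in turn, the genes called of the 9 were 3 to 5 (U2OS CPT), 0 to 0 (inhibitor, 0 to 97 over all genes), 2 to 4 (HEK293T CPT, 0 to 1 past the cutoff), 0 to 1 (ATM KO, 1666 to 2820 over all genes), 4 to 5 (between lines) and 0 to 3 (difference of responses). Log2 values that changed sign ran from −0.11 to 0.070 (TARDBP) and −0.063 to 0.045 (ATXN2) in U2OS CPT, −0.016 to 0.14 (TARDBP), −0.087 to 0.015 (MATR3), −0.00031 to 0.066 (ATXN2) and −0.17 to 0.046 (ATM) with the inhibitor, −0.029 to 0.26 (TARDBP) in HEK293T CPT, −0.069 to 0.20 (TIA1) in ATM KO, and −0.26 to 0.011 (TARDBP), −0.20 to 0.0040 (TAF15) and −0.11 to 0.098 (ATM) in the difference.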
